A study of Mus musculus with 3 samples.

Results

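The genes described here were 5 aquaporins, Aqp1, Aqp3, Aqp4, Aqp5 and Aqp8, and 4 carbonic anhydrases, Car2, Car4, Car9 and Car12, in single cells of the mouse gallbladder. They were taken by gene symbol, and all 9 were found, each in 1 row, among the 31053 genes of the deposited count matrix. The study profiled gallbladders of male C57BL/6 mice in 3 groups, given nanoplastics by gavage for 3 weeks, given nanoplastics by gavage for 6 weeks, or given vehicle by gavage for 6 weeks. No age or transgene is stated. Each group was 1 droplet library from 10 gallbladders, pooled and digested with trypsin, so that no group has a replicate. The barcodes carry a library number, 1, 2 or 3, that neither the files nor the labels tie to a group. The libraries are therefore given by number and no exposed group was compared with the vehicle group.

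Of 27700 barcodes, 24993 were kept as cells. Libraries 1, 2 and 3 held 4263, 10933 and 9797 of them, with a median of 10381, 9330 and 2288 unique molecular identifiers (UMIs, each counting 1 captured RNA molecule). The cells fell into 29 clusters, which were named from marker genes as 15 classes plus 96 rod photoreceptor-like cells that came only from library 1. The epithelial-like class held 9673 cells in 6 clusters, with 9 of 9 epithelial markers detected in 5 of the clusters and 8 in the remaining one. Levels below are CPM, the UMIs of a gene per 1000000 UMIs summed over the cells of a class. Their intervals are exact Poisson 95% intervals, which cover counting error only. Counts were not scaled by transcript length, so levels were compared between cells and not between genes. In kept cells, 43 barcode sequences occurred in more than 1 library.

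Aquaporins are membrane channels for water, and some of them also pass glycerol. Carbonic anhydrases convert carbon dioxide and water into bicarbonate and protons. The gallbladder epithelium concentrates bile by absorbing sodium, chloride and water across its wall, and it also secretes bicarbonate and acid. Aqp1 is the classical water-selective channel of absorptive and secretory epithelia and of capillary endothelium. Aqp8 is a water channel of hepatocytes and bile duct cells, Aqp5 of the apical membrane of glands, Aqp4 of astrocytes, and Aqp3 a channel for water and glycerol. Car2 is the fast cytosolic carbonic anhydrase, Car4 is anchored to the outer membrane face by a lipid, and Car9 and Car12 span the membrane with the enzyme outside the cell. Car9 is also a textbook target of the hypoxia-inducible factor.

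The promoters of 7 of the 9 genes were matched in RefSeq on GRCm38.p6, as 300 bases from 250 before to 50 after the annotated start. Those of Aqp1, Aqp8, Car4 and Car9 are shown because these genes were high in the same epithelial cells, and that of Car12 because its levels ran the opposite way. Aqp1 lies at chr6:55336049-55336348 on the plus strand, Aqp8 at chr7:123462044-123462343 (plus), Car4 at chr11:84957504-84957803 (plus), Car9 at chr4:43506776-43507075 (plus) and Car12 at chr9:66713436-66713735 (plus). Capitals mark every match, on either strand, to any of 3 motifs. The core of the hypoxia response element was searched as ACGTG. The GC box was searched as GGGCGG and the TATA box was searched as TATAAA. Where CACGTG occurs, the hypoxia core is present on both strands and counts as 2 overlapping matches.
Aqp1: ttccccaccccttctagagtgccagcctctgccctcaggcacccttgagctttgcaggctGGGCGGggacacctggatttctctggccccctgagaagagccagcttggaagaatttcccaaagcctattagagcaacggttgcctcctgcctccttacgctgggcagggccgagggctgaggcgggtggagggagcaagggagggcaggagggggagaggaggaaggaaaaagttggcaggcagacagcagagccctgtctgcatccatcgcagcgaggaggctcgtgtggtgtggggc
Aqp8: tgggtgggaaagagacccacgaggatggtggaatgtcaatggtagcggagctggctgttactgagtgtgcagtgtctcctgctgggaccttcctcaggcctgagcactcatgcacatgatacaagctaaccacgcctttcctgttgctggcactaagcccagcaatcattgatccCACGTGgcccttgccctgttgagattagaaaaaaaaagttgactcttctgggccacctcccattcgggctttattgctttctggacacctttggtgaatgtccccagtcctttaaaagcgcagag
Car4: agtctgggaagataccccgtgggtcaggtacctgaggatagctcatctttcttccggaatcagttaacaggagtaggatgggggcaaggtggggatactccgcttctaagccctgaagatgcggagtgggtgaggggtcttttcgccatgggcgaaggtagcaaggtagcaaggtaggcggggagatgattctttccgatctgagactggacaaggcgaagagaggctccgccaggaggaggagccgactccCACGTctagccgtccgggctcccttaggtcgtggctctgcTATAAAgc
Car9: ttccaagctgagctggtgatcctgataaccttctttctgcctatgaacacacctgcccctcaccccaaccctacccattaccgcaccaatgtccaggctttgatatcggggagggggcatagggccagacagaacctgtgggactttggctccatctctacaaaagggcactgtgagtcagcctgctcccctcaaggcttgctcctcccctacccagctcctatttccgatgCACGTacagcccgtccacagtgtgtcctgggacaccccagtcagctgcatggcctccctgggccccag
Car12: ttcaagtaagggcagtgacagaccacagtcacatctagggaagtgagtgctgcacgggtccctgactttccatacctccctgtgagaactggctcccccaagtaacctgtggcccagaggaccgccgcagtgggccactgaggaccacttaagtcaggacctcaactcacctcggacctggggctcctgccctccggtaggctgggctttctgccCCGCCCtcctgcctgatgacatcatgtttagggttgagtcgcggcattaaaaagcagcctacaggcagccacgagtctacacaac
The Car9 window held 1 hypoxia core, starting 18 bases before the annotated start. The Aqp8 window held 1 CACGTG and no GC or TATA box. The Car4 window held 1 hypoxia core and 1 TATA box, both after the annotated start. The Aqp1 window held 1 GC box, 190 bases before the RefSeq start, and the Car12 window held 1 GC box, 35 bases before its start. For Aqp1 the whole window lies before the GENCODE gene start given below, chr6:55336432, so the 2 annotations place the start differently. Among 32851 mouse promoter windows of the same length, 19.6% held the hypoxia core, 35.7% the GC box and 13.6% the TATA box. These matches are letters in a window and were not tied to binding or to a level.

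The gallbladder epithelium held most of these genes. A gene was counted as present in a class at 10 CPM and 20 UMIs. Of the 9 genes, 7 were present in epithelial-like cells, beside 7766 of all 31053 genes. The exceptions were Aqp3 and Aqp4. Of the 8 genes present in any class, 5 had their highest level in epithelial-like cells, namely Aqp5, Aqp8, Car2, Car9 and Car12, beside 13.8% of the 12251 genes present in any class. Aqp1 and Car4, 2 of the 8, were highest in blood endothelial-like cells, beside 9.26% of those genes, and Aqp3 was highest in T cell-like cells. Without library 3 the count for blood endothelium was 1, Aqp1. Of the 7 genes present in epithelium, 4 were at least 2-fold above every other class that held them as present, apart from tuft cells. They were Aqp8, Car2, Car9 and Car12, beside 8.28% of the 7766 genes present in epithelium. With 20 principal components the count was 2, Aqp8 and Car12. There 101 of the tuft-like cells joined a cluster named plasma, of 281 cells, which had 543 CPM of Car2 and 128 CPM of Car9. Tuft-like cells, a chemosensory epithelial type, share the epithelial lineage. They were therefore left out of the counts of highest level and of 2-fold excess, and of the 12251 genes. Classes under the minimum for presence did not enter these counts either. Schwann and glia-like cells were above epithelium for Aqp5 and Car12, at 50.6 and 15.2 CPM, but from 10 and 3 UMIs.

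**Figure D1:**
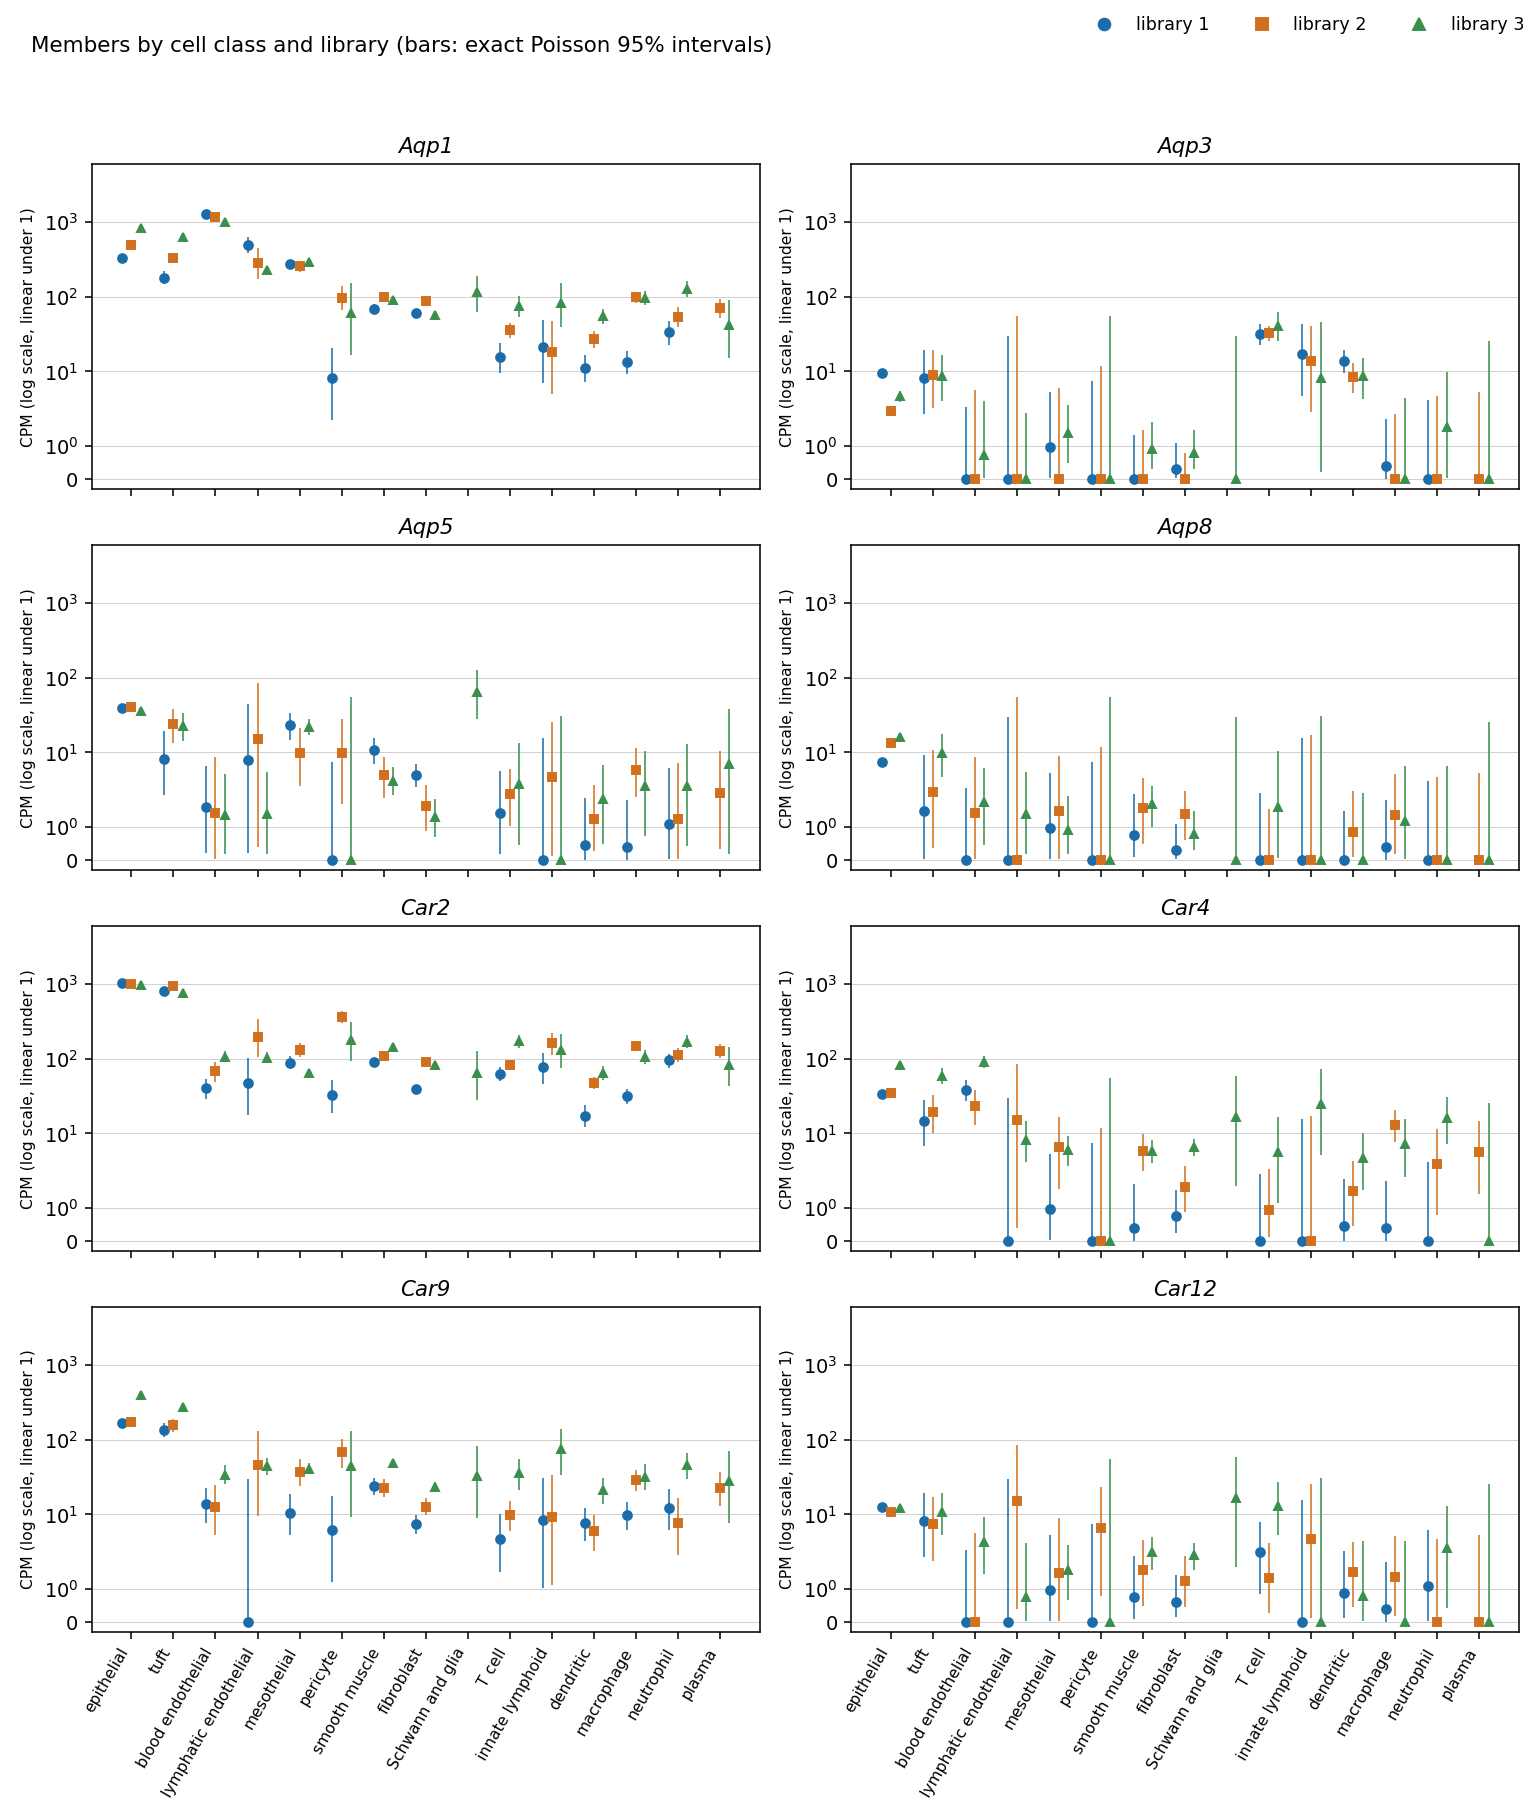
Level of 8 of the genes (CPM of summed UMIs, log scale, linear under 1) in 15 cell classes, with a point per library that had at least 20 cells in the class and bars for exact Poisson 95% intervals. Car2 and Car9 stand highest in epithelial and tuft cells in all 3 libraries, Aqp1 in blood endothelium (1021 to 1285 CPM) and Aqp3 in T cells (31.7 to 41.2 CPM).

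Aqp1 (chr6:55336432-55348555, plus strand, GENCODE M21 on GRCm38) had 1285, 1178 and 1021 CPM in blood endothelial-like cells of libraries 1, 2 and 3, against 333, 497 and 827 CPM in the epithelium. The ranges of these classes did not overlap. Each cell was also gated on its own markers in place of clusters. The levels were then 1261, 1176 and 697 CPM in endothelial cells and 328, 493 and 803 CPM in epithelium. The ranges overlapped, and library 3 had the higher level in epithelium. That gate was for endothelial cells, not for blood endothelium alone, and the part of lymphatic cells in it was not tested. Tuft-like cells had 182, 330.0 and 636 CPM, mesothelial-like cells, the outer lining of the organ, had 273, 257 and 293 CPM, and lymphatic endothelial-like cells had 502, 288 and 226 CPM. In order of their pooled levels, blood endothelium (1145 CPM) was followed by epithelium (509.8), tuft (427), mesothelium (284), lymphatic endothelium (251) and Schwann and glia (172, from 34 UMIs), and every other class lay between 26.9 and 87.7 CPM. From epithelium down to lymphatic endothelium, each class overlapped the next over the libraries. The share of cells with an Aqp1 UMI was 63.0% in epithelial-like cells (exact binomial 95% interval 62.0 to 64.0%, median depth 13260 UMIs) and 7.95% in T cell-like cells (6.67 to 9.40%, median depth 2087 UMIs). With each cell thinned to 1500 UMIs, which left out 322 epithelial-like and 379 T cell-like cells, these shares were 37.0% and 4.73%.

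Aqp8 was low and was found almost only in epithelium. Its level was 7.52, 13.2 and 16.2 CPM in epithelial-like cells of libraries 1, 2 and 3, from 2089 UMIs, against at most 2.14 CPM in any library of a class outside epithelium and tuft. Tuft-like cells had 1.64, 2.96 and 9.71 CPM from 13 UMIs. An Aqp8 UMI was found in 10.8% of epithelial-like cells (10.2 to 11.4%) and in 1 T cell-like cell, or 0.0631% (0.00160 to 0.351%). Thinned, the shares were 1.81% and 0%.

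Aqp5 was even between libraries, with 39.4, 40.2 and 35.8 CPM in epithelial-like cells. It was also present in mesothelial-like cells, which had 23.0, 9.75 and 22.1 CPM, and in tuft-like cells, which had 8.18, 23.7 and 22.3 CPM. Schwann and glia-like cells had 50.6 CPM, but from 10 UMIs, under the minimum for presence. The other classes were at 5.98 CPM or less pooled, and 19.1% of epithelial-like cells had a UMI, against 0.631% of T cell-like cells.

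Car2 had 1052, 1018 and 969 CPM in epithelial-like cells and 805, 957 and 770.1 CPM in tuft-like cells. No other class exceeded 162 CPM pooled. Pericyte-like cells, which had that value, ranged over 32.4, 366 and 180.5 CPM between libraries. A Car2 UMI was found in 96.5% of epithelial-like cells and in 17.4% of T cell-like cells, and in 71.7% and 12.03% after thinning.

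Car9 had 168, 175 and 401 CPM in epithelial-like cells and 137, 157 and 272 CPM in tuft-like cells. Library 3 was the highest in both. Outside the epithelium, pooled levels ran from 9.82 CPM in dendritic cells to 40.6 CPM in lymphatic endothelium. A UMI was found in 74.6% of epithelial-like and 2.78% of T cell-like cells, and in 23.5% and 1.41% after thinning.

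Car4 was shared by endothelium and epithelium. Blood endothelial-like cells had 38.3, 23.2 and 91.3 CPM, from 42, 15 and 128 UMIs, and epithelial-like cells had 33.7, 34.6 and 82.4 CPM. Endothelium was the higher class in libraries 1 and 3 and the lower one in library 2, and the ranges over libraries overlapped, so the order of these classes does not hold beyond their spread. Without library 3 the endothelial level was 32.7 CPM, under the 34.3 CPM of epithelium. Tuft-like cells had 14.7, 19.2 and 59.2 CPM, and no other class was counted as present.

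Car12 was low in epithelial-like cells, at 12.5, 10.7 and 12.1 CPM. Tuft-like cells had 8.18, 7.40 and 10.7 CPM. The value of Schwann and glia-like cells, 15.2 CPM, came from 3 UMIs. T cell-like cells ran from 1.40 to 13.1 CPM over libraries. The highest value, in library 3, came from 7 UMIs and was above the 12.1 CPM of epithelium there. A Car12 UMI was seen in 15.6% of epithelial-like and 0.821% of T cell-like cells, and in 1.63% and 0.332% after thinning.

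Within the epithelium, the genes divided by cluster. The 6 clusters were made without the 9 genes, and differed in Lcn2, which encodes the iron-trapping defence protein lipocalin 2. Clusters 5 and 0 had little Lcn2 (19.3 and 28.1 CPM), clusters 9, 12 and 18 had 481, 989.6 and 1357 CPM, and cluster 1 had 4476 CPM. Between their highest and lowest cluster, 6 of the 7 genes present in epithelium differed at least 2-fold, beside 26.6% of the 7766 genes present there, and Car2 did not.

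**Figure D2:**
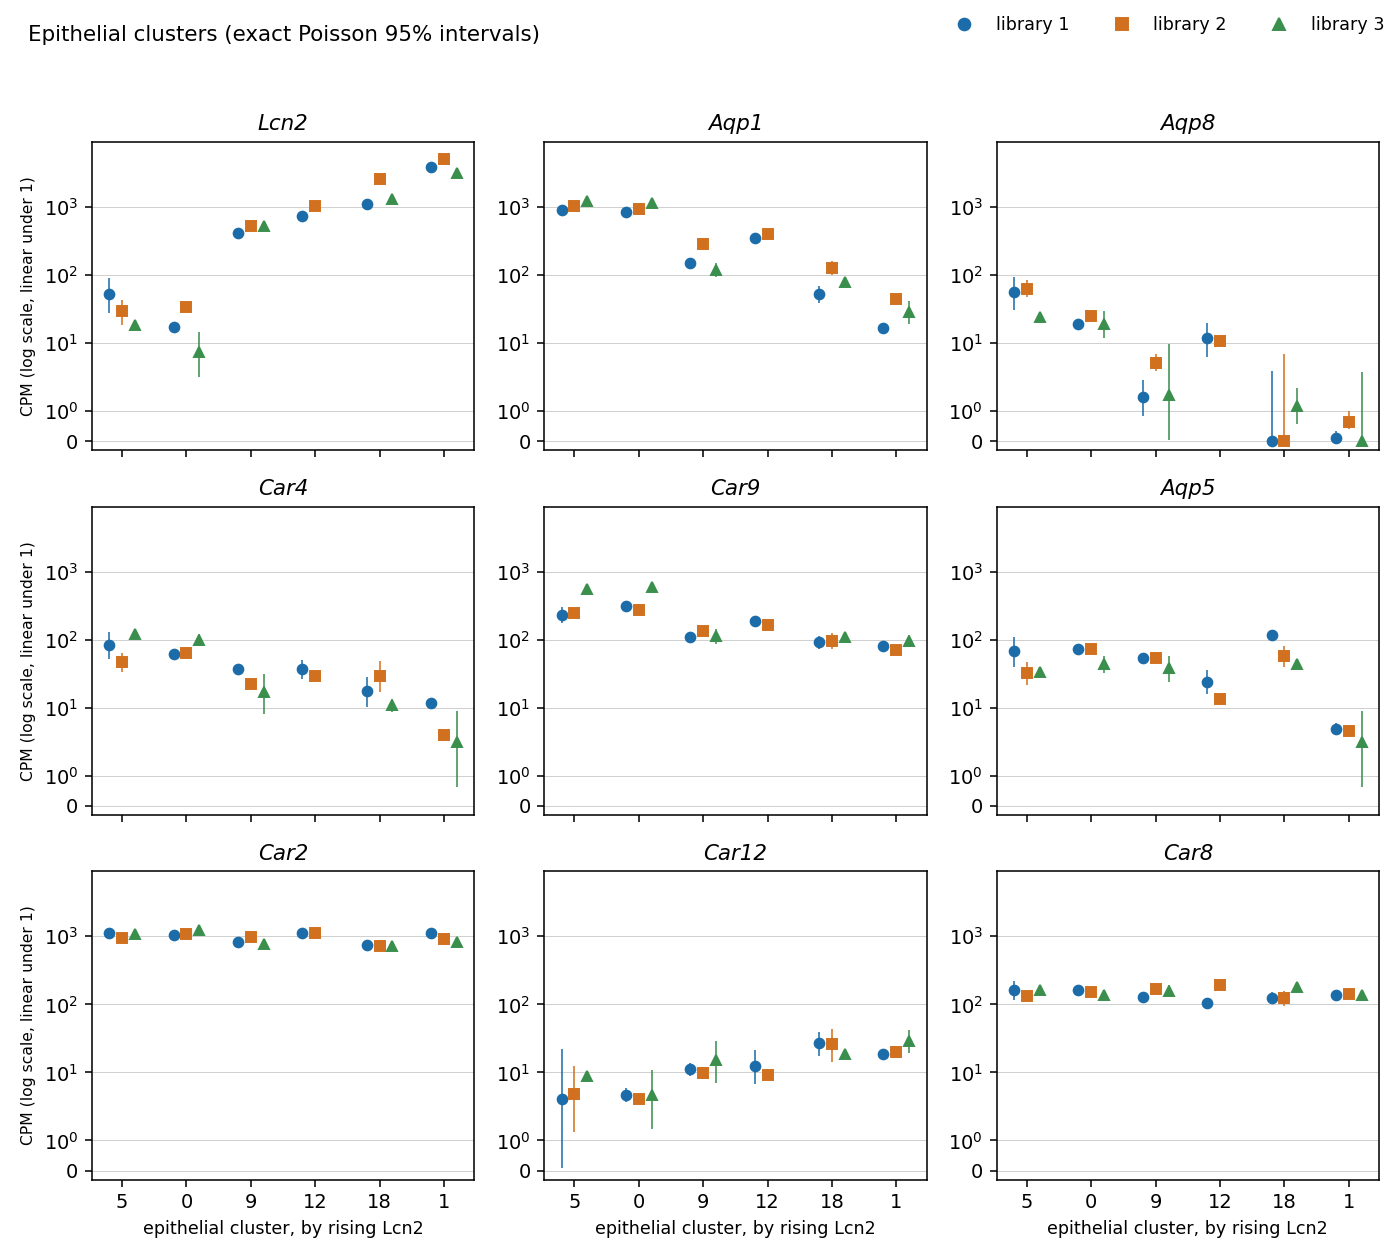
Level of Lcn2, 7 of the genes and the related gene Car8 (CPM, log scale, linear under 1) in the 6 epithelial clusters, ordered by rising Lcn2, with a point per library of at least 20 cells and exact Poisson 95% intervals. Aqp1, Aqp8, Car4 and Car9 are high in clusters 5 and 0 and low in cluster 1, Car12 is the reverse, and Car2 stays between 709 and 1218 CPM.

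Aqp1 had 834, 932 and 1126 CPM in cluster 0 and 896, 1033 and 1205 CPM in cluster 5, in libraries 1, 2 and 3. The Lcn2-high cluster 1 had 16.4, 43.7 and 28.9 CPM. In each library Aqp1 was thus higher in both Lcn2-low clusters than in cluster 1, and pooled the highest cluster exceeded the lowest 36.9-fold. Clusters 9 (149, 286 and 118 CPM), 12 (344 and 405 CPM in libraries 1 and 2) and 18 (51.6, 128 and 78.3 CPM) lay between them.

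Aqp8 followed the same clusters, with 56.2, 63.1 and 24.0 CPM in cluster 5 and 19.2, 25.1 and 19.3 CPM in cluster 0. In cluster 5, library 1 had 14 Aqp8 UMIs in 2 of 22 cells, and library 2 had 52 in 9 of 36 cells. Cluster 1 had 0.0931, 0.652 and 0 CPM, and all libraries together held 22 UMIs there. The 0 of library 3 allows up to 3.09 CPM, taking 3 counts as the limit. Car4 had 84.3, 47.3 and 119 CPM in cluster 5, 60.8, 63.5 and 99.0 CPM in cluster 0 and 11.5, 3.98 and 3.09 CPM in cluster 1. Its cluster 5 value in library 1 came from 21 UMIs in 4 of 22 cells. The pooled ratio of the highest to the lowest cluster was 62.8 for Aqp8 and 16.5 for Car4. In no library did the values of clusters 0 and 5 overlap those of cluster 1 for either gene.

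Car9 had 311, 271 and 587 CPM in cluster 0 and 233, 249.8 and 546 CPM in cluster 5, against 80.5, 71.3 and 97.0 CPM in cluster 1. The pooled ratio of cluster 5 to cluster 1 was 7.02. Library 3 gave 1131 of the 1189 cells of cluster 5 and 40 of the 2869 cells of cluster 1, so this ratio also holds the difference between libraries. The pooled ratios of Aqp1, Aqp8 and Car4 set the same clusters against each other. Aqp5 did not follow the order of these genes through all clusters. It had 73.9, 74.0 and 44.0 CPM in cluster 0 and 4.94, 4.59 and 3.09 CPM in cluster 1, but also 117, 57.5 and 43.5 CPM in cluster 18, where Aqp1 was low. In cluster 12, which was led by genes such as Tff2 and Spink4 and carried the interferon-induced gene Isg15 at 451 CPM, libraries 1 and 2 had 24.2 and 13.5 CPM of Aqp5 and 344 and 405 CPM of Aqp1.

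Car12 ran the other way. It had 26.8, 26.0 and 18.5 CPM in cluster 18 and 18.4, 20.1 and 28.9 CPM in cluster 1, against 4.72, 4.01 and 4.59 CPM in cluster 0. In each library both Lcn2-rich clusters were above cluster 0, and the pooled ratio of the highest cluster (18) to the lowest (0) was 4.66. Library 3 gave 463 of the 532 cells of cluster 18 and 51 of the 3076 cells of cluster 0. Car2 had a pooled ratio of 1.57, with 1129 CPM in cluster 12 and 717 CPM in cluster 18.

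Genes of bicarbonate and sodium transport were read over the same clusters. Slc4a4, the sodium bicarbonate cotransporter, had 1573, 1590.0 and 2873 CPM in cluster 0 and 698, 799 and 1045 CPM in cluster 1. Slc9a3, an apical sodium/proton exchanger, had 195, 99.2 and 188 CPM in cluster 0 and 6.33, 5.96 and 4.13 CPM in cluster 1. Both were thus higher in cluster 0 in each library. The bile acid transporter Slc10a2 did not follow them, with 151, 154 and 182 CPM in cluster 0 and 223, 236 and 253 CPM in cluster 1. Of the hypoxia genes, Ndrg1 was at 416 CPM in cluster 0 and 165 CPM in cluster 1 pooled. Egln3 was at 42.9 CPM in cluster 0 and 106 CPM in cluster 1, and Ankrd37 at 2.57 CPM in cluster 0 and 19.1 CPM in cluster 1, so that these genes did not share 1 direction. The transport and hypoxia genes of these sentences were picked for naming after their values were seen.

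Across single epithelial-like cells of each library, Spearman's rho was computed over 1543, 6399 and 1731 cells. Aqp1 with Car9 gave 0.61, 0.54 and 0.61, Aqp1 with Slc4a4 gave 0.58, 0.51 and 0.56, and Aqp1 with Lcn2 gave -0.55, -0.65 and -0.41. Aqp1 with Car4 gave 0.39, 0.42 and 0.50. Cells with more Aqp1 thus had more Car9 and Slc4a4 and less Lcn2 in all 3 libraries. These cells share library, depth and the same total in the denominator, and the values are a description.

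The libraries filled the epithelial clusters unequally. Over all epithelial-like cells Aqp1, Aqp8, Car4 and Car9, 4 of 7, differed at least 2-fold between the highest and the lowest library, beside 10.1% of the 7766 genes, and library 3 was highest for each. Cluster 0 held 30.3, 40.0 and 2.95% of the epithelial-like cells in libraries 1, 2 and 3, cluster 5 held 1.43, 0.563 and 65.3%, and cluster 1 held 43.8, 33.6 and 2.31%. For Aqp1 the libraries ran from 333 to 827 CPM in the whole class. They ran from 834 to 1126 CPM within cluster 0 and from 896 to 1205 CPM within cluster 5. Within cluster 1 they ran from 16.4 to 43.7 CPM and within cluster 9 from 118 to 286 CPM, so the spread did not narrow in every cluster. For Car9 library 3 remained the highest within cluster 0 (587 CPM, beside 311 and 271 CPM) and within cluster 5 (546 CPM, beside 233 and 249.8 CPM). Without library 3, 0 of the 7 differed 2-fold, and without library 1 the count was 2, Car4 and Car9. Library, depth and group cannot be told apart here.

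Blood endothelium was clustered again on its own, without the 9 genes, because Aqp1 and Car4 were both high there. Its 1233 cells gave 8 subclusters, of which 6 had at least 50 cells. Subclusters are described by lists of capillary, venous and arterial markers, as the difference of the mean log2(CPM + 20) of venous and capillary markers.

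**Figure D3:**
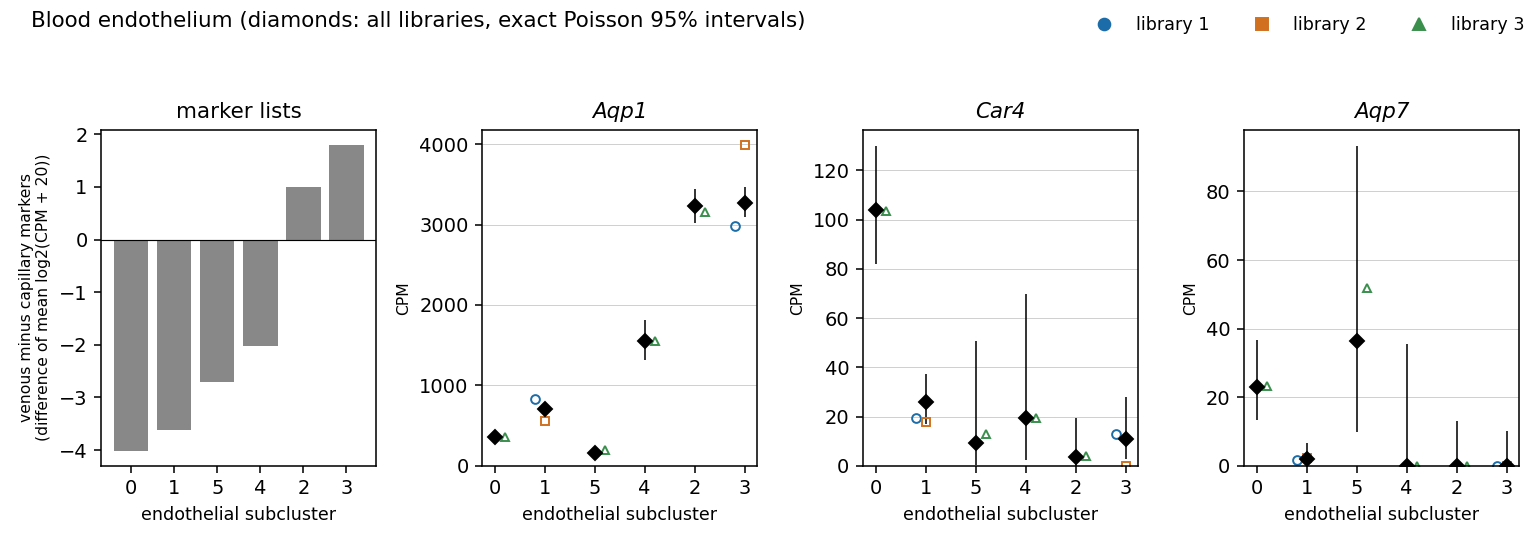
Venous minus capillary marker level (difference of mean log2(CPM + 20)) and level of Aqp1, Car4 and Aqp7 (CPM) in the 6 endothelial subclusters with at least 50 cells. Diamonds pool all libraries with exact Poisson 95% intervals, and open symbols are libraries with at least 20 cells. Aqp1 is highest in subclusters 2 and 3 (3229 and 3273 CPM) and Car4 in subcluster 0 (104 CPM).

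Among the 6 subclusters with at least 50 cells, Aqp1 and Car4 were highest in different ones. Between venous-type and capillary-type cells of the same library, the Car4 intervals were apart only in library 3. Subcluster 3 (80 cells), which carried the venous genes Selp, Sele, Ackr1 and Vwf, had 3273 CPM of Aqp1 (95% interval 3091 to 3463), with 2983 CPM in library 1 and 3985 CPM in library 2. Its Car4 level was 10.9 CPM (2.96 to 27.8), from 4 UMIs. Subcluster 2 (145 cells, 131 of them from library 3), which also had more venous than capillary signal, had 3229 CPM of Aqp1 and 1 UMI of Car4.

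Subcluster 0 (532 cells, 525 from library 3), the most capillary of these 6 with Rgcc at 2207 CPM and Selp at 13.5 CPM, had 357 CPM of Aqp1 (315 to 402) and 104 CPM of Car4 (82.1 to 130.0). Subcluster 1 (290 cells) held capillary-type cells, 106 and 177 from libraries 1 and 2 and 7 from library 3. It had 701 CPM of Aqp1, with 826 and 557 CPM in libraries 1 and 2. Its Car4 level was 25.8 CPM over all libraries, above the 19.3 and 18.0 CPM of libraries 1 and 2. The most venous and the most capillary subcluster came from different libraries, 29 and 46 of 80 cells from libraries 1 and 2 and 525 of 532 from library 3, so they were also set against venous-type and capillary-type cells of the same library. In library 1, subclusters 3 and 1 had 2983 and 826 CPM of Aqp1 and 13.1 and 19.3 CPM of Car4. In library 2, they had 3985 and 557 CPM of Aqp1, and 0 UMIs of Car4 in subcluster 3, which allows up to 24.3 CPM, against 18.0 CPM in subcluster 1. In library 3, subclusters 2 and 0 had 3157 and 357 CPM of Aqp1 and 3.86 and 103 CPM of Car4. Within each library the intervals did not overlap for Aqp1. For Car4 they did not overlap in library 3 and overlapped in libraries 1 and 2, where a difference was not detectable at 0 to 12 UMIs a subcluster. At a higher clustering resolution the most venous and most capillary subclusters had 3357 and 403 CPM of Aqp1, and 10.6 and 128 CPM of Car4.

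Subcluster 5 (52 cells), which carried the arterial genes Gja5 and Sema3g, had 155 CPM of Aqp1. Subcluster 4 (64 cells, 63 from library 3), led by genes such as Clec4g, Dnase1l3 and Stab2 that are known from sinusoidal endothelium of the mouse liver, had 1551 CPM of Aqp1. Subcluster 6 (46 cells) had the highest Car4, 219 CPM, and the glycerol channel Aqp7 at 285 CPM, and it also carried epithelial RNA, with Krt8 at 1896 CPM against 91.1 to 356 CPM in the other subclusters. Its cells are part of the Car4 and Aqp7 levels of the whole blood endothelial-like class, and the class was not read without them.

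Red blood cells carry the AQP1 protein, so erythroid genes were set beside the endothelial level. The summed level of 7 erythroid genes in blood endothelial-like cells was 6.38, 3892 and 666 CPM in libraries 1, 2 and 3, where Aqp1 was at 1285, 1178 and 1021 CPM. In the subclusters with the most Aqp1, the same 7 genes together had 0 UMIs in subcluster 3 of library 1, 0 UMIs in subcluster 3 of library 2 and 3 UMIs (11.6 CPM) in subcluster 2 of library 3. Taking 3 counts as the limit, the zeros allow up to 13.1 CPM in library 1 and 24.3 CPM in library 2. Subcluster 3 over all libraries had 18 erythroid UMIs (48.8 CPM).

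Aqp3 was highest in T cell-like cells. Libraries 1, 2 and 3 had 31.7, 32.6 and 41.2 CPM there, against 9.64, 2.90 and 4.64 CPM in the epithelium, and the ranges did not overlap. Dendritic-like cells had 13.8, 8.42 and 8.58 CPM, and innate lymphoid-like cells 17.0, 13.8 and 8.27 CPM from 8 UMIs. Blood endothelium, neutrophils, fibroblasts and smooth muscle had 1.77 CPM or less in every library. Thinned to 1500 UMIs, 3.73% of T cell-like and 0.663% of epithelial-like cells held an Aqp3 UMI. The unthinned shares were 6.82% of T cell-like cells and 5.97% of epithelial-like cells, at the unequal depths given above.

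**Figure D4:**
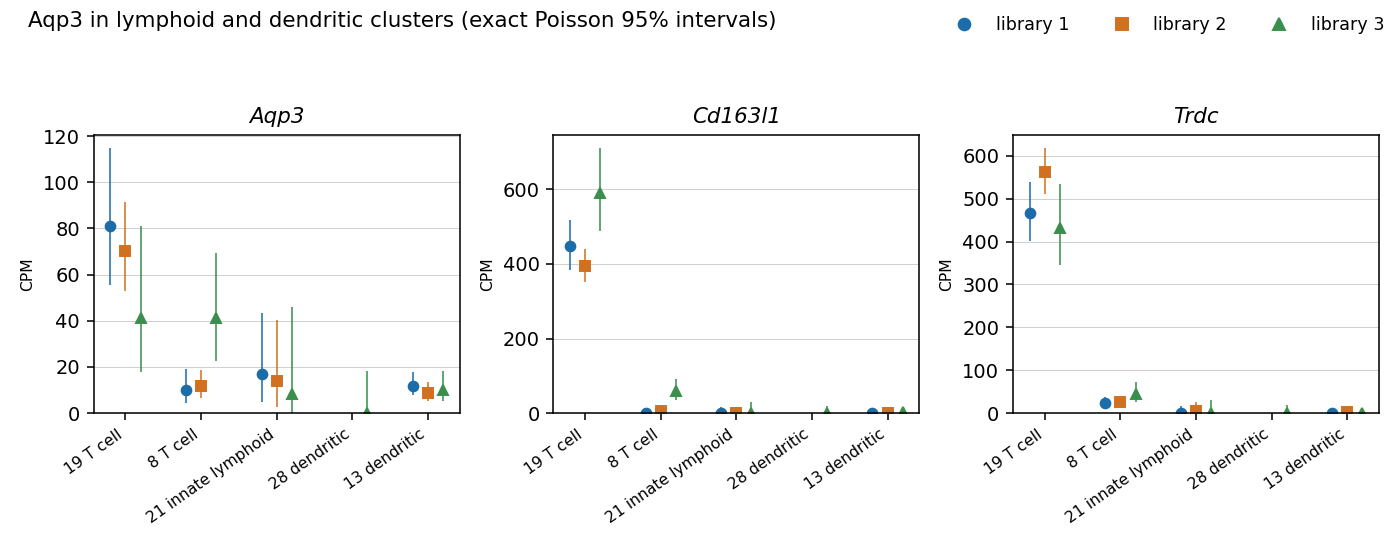
Level of Aqp3 and of the T cell genes Cd163l1 and Trdc (CPM) in lymphoid and dendritic clusters, with a point per library of at least 20 cells and exact Poisson 95% intervals. Aqp3 reaches 81.3 and 70.2 CPM in T cell cluster 19 of libraries 1 and 2, where Cd163l1 and Trdc are also high.

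Both T cell-like clusters differed in Aqp3. Cluster 19 (495 cells) had 81.3, 70.2 and 41.1 CPM from 32, 54 and 8 UMIs, and cluster 8 (1089 cells) had 10.0, 11.6 and 41.2 CPM from 9, 16 and 14 UMIs. The intervals did not overlap in libraries 1 and 2, while in library 3 the levels were alike, with wide intervals of 17.8 to 81.1 and 22.5 to 69.2 CPM. Cluster 19 carried Trdc and Tcrg-C1, which encode chains of the gamma-delta T cell receptor, at 516 and 263 CPM, Cd163l1 at 438 CPM and Il17a, the cytokine interleukin 17A, at 835 CPM, and held 1 UMI of Cd4. In cluster 8 the same genes were at 28.2, 25.2, 10.7 and 298 CPM and Cd4 at 88.9 CPM. These values pool the libraries. By library, cluster 8 had 0, 5.79 and 58.9 CPM of Cd163l1 and 24.5, 26.8 and 44.2 CPM of Trdc, highest in library 3, as for Aqp3. Cluster 19 of library 3 had 592 and 432 CPM of these genes. The epithelial gene Krt8 was at 240.2 CPM in cluster 19 and 306 CPM in cluster 8, and its part in the Aqp3 levels was not tested.

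Aqp4 was all but missing from the gallbladder classes. Over all kept cells outside the rod photoreceptor-like ones it had 8 UMIs, 6 of them in epithelial-like cells (0.0349 CPM). The rod photoreceptor-like cells of library 1 alone had 15 UMIs, or 269 CPM.

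In droplet data, RNA that is free in the suspension is captured along with each cell. Epithelial RNA outside the epithelium was read from 5 junction and epithelial genes, Epcam, Cldn7, Cldn4, Cdh1 and Elf3, each as a percentage of its level in epithelial-like cells of the same library. Over 36 pairs of a class and a library outside epithelium and tuft, the median of the 5 genes had a middle value of 8.53% and ran from 1.43 to 37.9%.

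**Figure D5:**
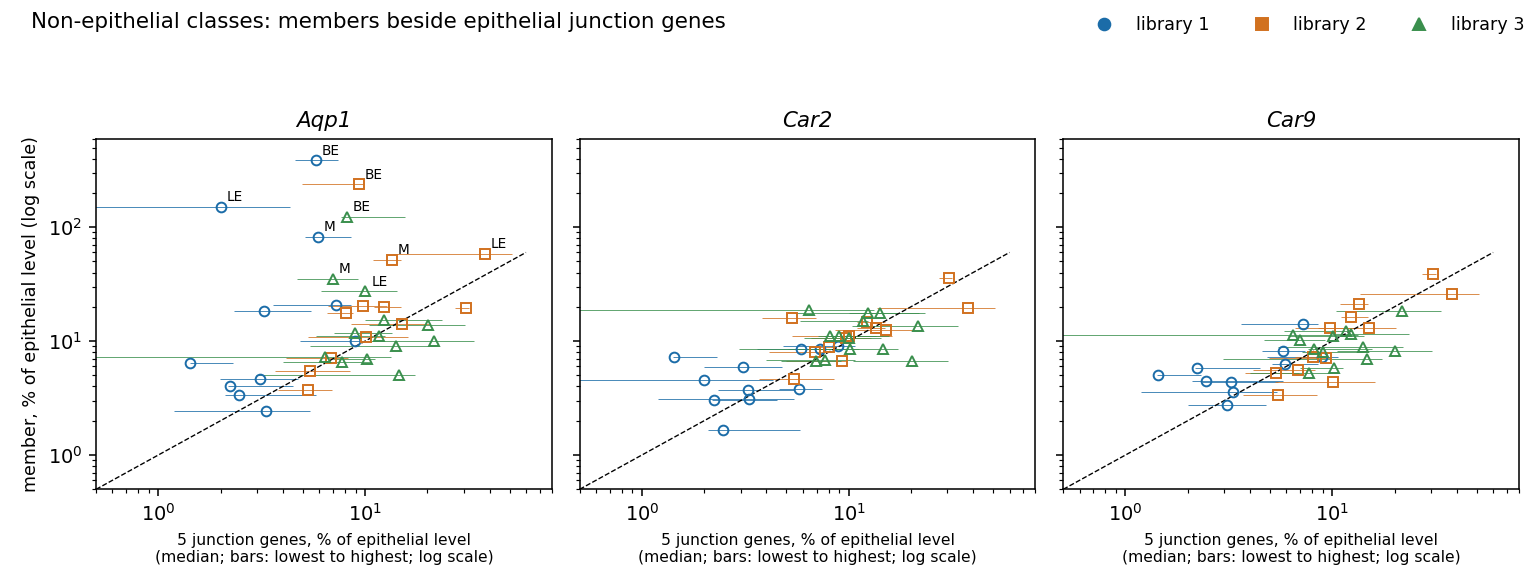
Level of Aqp1, Car2 and Car9 outside the epithelium (percentage of the level in epithelial-like cells of the same library, log scale) against the median of 5 junction genes, with bars from the lowest to the highest of the 5 and a point per class and library. Values of 0 are not drawn, and the dashed line marks equal percentages. Blood endothelium (BE) and mesothelium (M) lie above the line for Aqp1 in all 3 libraries, lymphatic endothelium (LE) is labelled, and Car2 and Car9 lie on both sides of the line.

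A gene was counted as above the 5 junction genes where the lower bound of its 95% interval passed the highest of them, and the count by the value alone is given beside it. Aqp1 was above all 5 in 13 of the 36 pairs by its lower bound and in 15 by value, and by either count in blood endothelium and mesothelium in every library. In blood endothelium it was at 386, 237 and 123% of its epithelial level, where the highest junction gene was at 7.42, 9.85 and 15.6%. In mesothelium it was at 82.0, 51.7 and 35.4%, where the highest junction gene was at 8.53, 14.9 and 9.21%. Car4 was above all 5 in 4 pairs by its lower bound, 3 of them in blood endothelium, and in 6 by value.

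Car2 was above them in 3 of 36 pairs by its lower bound and in 9 by value. For Car9 these counts were 1 and 9 of 36, and for Aqp8 they were 0 and 3 of the 25 pairs that could be read. Aqp5 was above them in 5 pairs by its lower bound and in 9 by value, with mesothelium at 58.4% in library 1 and 61.8% in library 3. Car12 was above them in 4 pairs by its lower bound, on 4 to 25 UMIs, and in 17 by value. The part of free epithelial RNA in these levels was not tested.

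The other members of both families were read in the same way. Of all 31053 genes, 12467 were present in some class. Of 7 other aquaporins, 3 were present in some class, and the list was highest in neutrophil-like cells, where Aqp9, a channel for water and small solutes, was at 50.4 CPM (41.5 to 60.5) from 113 UMIs. Outside that rule and named after their values were seen, Aqp7 was at 35.6 CPM in blood endothelium and Aqp11 at 18.5 CPM in epithelium. Aqp7 was among the leading genes of endothelial subcluster 6 (46 cells), which also carried epithelial RNA and is part of the class level. The most capillary and the most venous subcluster had 23.0 and 0 CPM of Aqp7. Of 12 other carbonic anhydrases and related genes, 4 were present. Car8, a relative that has lost the enzyme activity, had 143, 157 and 164 CPM in epithelial-like cells and Car13, a cytosolic enzyme, had 11.5, 13.8 and 10.6 CPM. Car3 was present in mesothelium (25.8 CPM) and Car5b in smooth muscle (10.6 CPM), both named after their values were seen. Like Car2, Car8 was even over the epithelial clusters, between 140.4 and 185 CPM pooled.

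Of 19 transport partners of bicarbonate, chloride and sodium, 17 were present in epithelial-like cells, beside 7766 of all 31053 genes. Epithelial-like cells were the class with the highest sum. Among those with the most UMIs there were the sodium pump subunit Atp1b1 (1441 CPM), Slc4a4 (1385 CPM), the potassium channel Kcnq1 (163 CPM), the chloride channel Ano1 (156 CPM) and the chloride bicarbonate exchanger Slc26a3 (125 CPM). Slc26a3 had 69.3, 96.1 and 301 CPM in libraries 1, 2 and 3 and Slc4a4 had 1020.4, 1207 and 2504 CPM, and library 3 was highest for both, as for Aqp1, Car4 and Car9. All 10 hypoxia genes were present in some class, beside 12467 of all 31053 genes. Their sum was highest in lymphatic endothelium, led by Ndrg1 (719 CPM), Adm (254 CPM), Ldha (171 CPM), Pgk1 (115 CPM), Vegfa (66.1 CPM) and Egln3 (55.6 CPM). Car9 had 0, 45.5 and 44.1 CPM in that class, from 0, 3 and 59 UMIs in 20, 20 and 230 cells of libraries 1, 2 and 3.

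For each gene the 3 genes with the most similar profile were found by Pearson's r of log2(CPM + 10) over 42 profiles of a class in a library, among 12467 genes present in any class. These profiles share libraries, and epithelial RNA in all droplets is common to them. Aqp1 was most like Slco2a1 (0.92), a prostaglandin transporter, Itga6 (0.88) and Gja1 (0.86). Among the 9 genes Aqp1 was nearest to Car4 (0.78). Aqp3 was most like Rab19 (0.87), Adgrg5 (0.87) and Tcrg-C1 (0.85).

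Aqp5 was most like Epb41l4b (0.88), Fam83h (0.84) and Kif21a (0.84), and Aqp8 most like Gstm6 (0.93), Arhgap36 (0.91) and Slit1 (0.91). Car2 was most like Muc1 (0.95), a membrane mucin, Tmprss4 (0.94) and C4bp (0.94). Car4 was most like Aqp11 (0.89), Nr5a2 (0.88) and B3gnt3 (0.87). Car9 was most like Tmprss2 (0.95) and Dmbt1 (0.95), and had 0.89 with Car2. Car12 was most like 4930415O20Rik (0.84), Gimd1 (0.82) and Epn3 (0.81).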

How the data were processed

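Per the file headers and the submitters' processing notes, the authors made the deposited raw UMI counts, per gene and barcode, with Cell Ranger 6.1.1 against GRCm38 (mm10). The annotation version and the treatment of ambiguous reads are not given in the sources used here. The 3 library numbers in the barcodes are tied to no sample, so groups were not compared and no test was run.

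Barcodes under 300 genes or over 20% mitochondrial UMIs were dropped, and Scrublet (scanpy 1.11.5) removed 1024 doublets (3.94%) at a score of 0.25. Library depth before filtering was 72943584, 121349261 and 58172348 UMIs. Counts were scaled to 10000 per cell, and 2000 variable genes without the 9 described, 30 principal components and 15 neighbours went into Leiden clustering (leidenalg 0.10.2, resolution 1.0) with no batch correction. A cluster was named from at least 3 markers detected in 20% of its cells. Classes were compared from 50 cells and libraries from 20 cells. Poisson and Clopper-Pearson intervals came from scipy 1.17.1. The recovery of known folds and the coverage of the Poisson intervals were checked on simulated data, and the counting of genes past a fold was not.

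Of the other gene lists, those present in the class with the highest sum of the list are named, at most 6 per list, and others are marked in the text. Some genes that these rules name are not reported here. The genes and lists were chosen with earlier results of these data known. Alternatives changed filters, clustering, gating of single cells, scaling, minimum levels and libraries.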

Additional observations from a re-analysis of the deposited data

Results flagged for a closer look

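Aqp4 was at 269 CPM (95% interval 151 to 444) in the 96 rod photoreceptor-like cells of library 1, which the comparison of classes did not use, from 15 UMIs in 10 cells. A count of 0 would allow up to 53.9 CPM there. The value stood out because it lay above that limit in cells outside the main measurement. All other kept cells of the 3 libraries together held 8 Aqp4 UMIs. The same cells carried the photoreceptor gene Sag at 11027 CPM, had a median of 469 UMIs, and libraries 2 and 3 held none of them. Where these cells came from was not tested.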

How the results depend on the processing

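No paired analysis was possible because each group was 1 library and the library numbers are tied to no group. Of 89 alternative values for counts of genes, 81 kept within 1.5 times the count reported and 8 did not. The count of genes at least 2-fold apart between libraries in epithelium was 4, against 2 at a mitochondrial limit of 10% (Aqp1 and Aqp8), 2 without library 1 (Car4 and Car9) and 0 without library 3. The count at least 2-fold above every other class that held the gene as present was 4. It was 2 with 20 principal components (Aqp8 and Car12) and 2 at a minimum of 20 CPM and 40 UMIs (Car2 and Car9). Genes highest in blood endothelium were 2, against 1 (Aqp1) with each cell gated on its own and 1 (Aqp1) without library 3. The gate was for endothelial cells, not for blood endothelium alone. Genes highest in epithelium were 5, against 3 at that stricter minimum (Aqp5, Car2 and Car9). The stricter minimum tests fewer genes, and without a library fewer cells enter. With 20 principal components no tuft class was formed, and most tuft-like cells lay in the class named plasma. For the other changes the cause was not tested. Of 154 alternative levels, 87 stayed within the counting interval. Of 18 shares of cells with a UMI, 16 left it when cells were thinned to 1500 UMIs, and of 4 subcluster levels 1 left it at a higher resolution (Aqp1 in the most capillary subcluster, 403 CPM). The levels that moved over 1.5-fold were epithelial Aqp3 and blood endothelial Car4. Epithelial Aqp3 ran from 3.32 CPM without library 1 to 7.69 CPM without library 2. Blood endothelial Car4, which was 58.8 CPM, was at 32.7 CPM without library 3. With each cell gated on its own, Car4 was at 36.4 CPM in endothelial cells. Gating by single cells placed 87.4% of the kept cells, and 97.8% of its epithelial cells lay in epithelial or tuft clusters. Depth limits Aqp8, Car12 and Aqp3 outside their main class, where counts were often under 20 UMIs.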
